A study of Mus musculus with 6 samples.

Results

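The dual-specificity phosphatases of the Dusp family that act on mitogen-activated protein kinases (MAPKs) were described in mouse embryonic fibroblasts (MEFs) before and during treatment with TNFα. The family was taken as 10 genes, Dusp1, Dusp2, Dusp4, Dusp5, Dusp6, Dusp7, Dusp8, Dusp10, Dusp14 and Dusp16, out of 20275 coding genes in the deposited RefSeq table, and each gene was represented by the transcript with the highest mean. All 10 were listed in the table and 9 had values above 0 in every library, while Dusp2 was listed at 0 throughout.

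Primary wildtype MEFs of strain C57BL/6x 129, taken from embryos of 13.5 days and passaged 4 times, were left untreated or given 20 ng/ml of TNFα for 1.5, 6 or 24 hr. Poly-A RNA was sequenced with 1 library per time, so there was no replicate and no test between times. H3K4me3 was profiled with 1 ChIP-seq library and 1 input library from untreated cells of the same strain and passage. Nothing in the labels ties the 4 RNA libraries to separate cultures, and the extraction label of the 24 hr RNA library describes a ChIP although its title, treatment and library source do not.

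MAPK phosphatases remove phosphate from both the threonine and the tyrosine of the activation loop of ERK, JNK and p38, which switches these kinases off. Many of the genes are themselves transcribed in response to MAPK signalling, so the family is known as a set of feedback inhibitors. TNFα activates JNK, p38, ERK and NF-κB in fibroblasts. Dusp1, Dusp2, Dusp4 and Dusp5 are the inducible nuclear members, Dusp6 and Dusp7 are cytoplasmic and prefer ERK, Dusp8, Dusp10 and Dusp16 prefer JNK and p38, and Dusp14 is a small member without the MAPK-binding domain.

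The levels are RPKM values as deposited, which lie on a scale of their own and are called units here. Each library has 2 columns, R1 and R2, whose content is not stated. Their mean was used, and for the 9 expressed members the columns of a library differed by at most 18.4% (Dusp8 at 6 hr). The values are not counts, but they moved in steps. In all of 2508 transcripts examined, the 8 columns held whole multiples of 1 step to within 0.001 of a step, and low transcripts were most often at 41 steps, which was taken as 1 read. On this basis the members rested on 60.6 reads (Dusp4) to 395 reads (Dusp7) per column in the untreated library and on 29.0 reads (Dusp14) to 206 reads (Dusp7) at 6 hr. The steps are the smallest whole numbers that give the values, and the reads follow from them only if 41 steps are 1 read. A factor shared by all columns of a gene would make its reads too few. The length implied by the step was 1156 bp for Dusp5 and 2452 bp for Dusp8, against longest annotated transcripts of 2473 and 4804 bp. These genes may thus rest on more reads, and their intervals may be too wide. The 95% intervals below are exact intervals from these reads and cover counting error only, not the spread between cultures.

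The libraries differed as a whole. The median coding gene with a mean of at least 100 units over the 4 libraries (6050 genes) stood at 1.36 times its untreated level after 1.5 hr, 0.599 times after 6 hr and 1.07 times after 24 hr, or 0.44, -0.74 and 0.10 on the log2 scale. Log2 ratios are therefore given on the deposited scale and relative to this median. The shift also moved with base composition. At 1.5 hr the median log2 ratio came to 1.24 among the fifth of these genes with the lowest GC content and -0.43 among the fifth with the highest. At 24 hr these medians were 0.80 and -0.69. The expressed members ranged from 47.8% GC (Dusp16) to 58.8% GC (Dusp8), so their ratios are also given against coding genes of the same GC content. What part GC content had in the ratios was not tested further.

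Known TNFα targets were higher in every treated library. All 6 of the NF-κB target genes looked up for this purpose (Nfkbia, Tnfaip3, Ccl2, Icam1, Nfkb2 and Relb) were at least 2-fold higher at 1.5, 6 and 24 hr on the deposited scale, and relative to the median coding gene 5 of 6 were at 24 hr. All 8 fibroblast markers passed 100 units. Of the leukocyte markers Cd3e was at 0, but Csf1r, the receptor of a macrophage growth factor, stood at 295, 287, 90.1 and 124 units in order of time. Of the 4 leukocyte markers above 0, 2 were at least 2-fold higher at 1.5 hr on the deposited scale, the direction of most members. These were Emr1, from 26.3 to 74.0 units, and Ptprc, from 13.4 to 30.8 units, while Itgam went from 41.1 to 64.4 units. Of coding genes with a mean of at least 10 units 31.3% were 2-fold higher then. Relative to the median coding gene 1 of the 4 was, Emr1, against 16.5% of those coding genes. The 6 leukocyte markers listed summed to 375, 456, 133 and 220 units. The 4 endothelial markers summed to at most 5.04 units and the 4 epithelial markers to at most 3.54 units, with Epcam at 0. Whether cells other than fibroblasts contributed to the members' levels was not tested, and in bulk RNA fewer cells of a type and less RNA per cell cannot be told apart.

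The promoters are shown for 6 members, those that hold a motif of a MAPK-responsive factor, the member with the largest change on the deposited scale and the members without an H3K4me3 peak. They are RefSeq promoters of build GRCm38.p6, from 250 bases before to 50 bases after the start, and each matched mm9 exactly at 1 place. Of the 10 members 9 matched the promoter table, all except Dusp4. In the first set, capitals mark the cyclic AMP response element (CRE, TGACGTCA), bound by CREB and ATF factors, in Dusp1 and Dusp8, and the CArG box, bound by serum response factor, in Dusp5. The mm9 positions are chr17:26645368-26645667 on the minus strand for Dusp1, chr7:149281140-149281439 on the minus strand for Dusp8 and chr19:53603385-53603684 on the plus strand for Dusp5.
Dusp1: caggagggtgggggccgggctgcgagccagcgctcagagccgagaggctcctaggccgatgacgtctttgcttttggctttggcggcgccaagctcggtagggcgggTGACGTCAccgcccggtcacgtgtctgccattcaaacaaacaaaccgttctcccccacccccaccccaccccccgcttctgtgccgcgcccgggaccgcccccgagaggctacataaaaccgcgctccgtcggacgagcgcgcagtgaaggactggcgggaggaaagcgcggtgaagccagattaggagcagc
Dusp8: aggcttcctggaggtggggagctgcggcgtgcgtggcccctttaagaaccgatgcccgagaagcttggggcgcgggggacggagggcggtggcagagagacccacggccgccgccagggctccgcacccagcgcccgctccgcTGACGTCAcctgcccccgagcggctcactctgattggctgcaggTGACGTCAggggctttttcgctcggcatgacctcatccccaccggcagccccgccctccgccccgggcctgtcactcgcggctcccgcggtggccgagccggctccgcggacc
Dusp5: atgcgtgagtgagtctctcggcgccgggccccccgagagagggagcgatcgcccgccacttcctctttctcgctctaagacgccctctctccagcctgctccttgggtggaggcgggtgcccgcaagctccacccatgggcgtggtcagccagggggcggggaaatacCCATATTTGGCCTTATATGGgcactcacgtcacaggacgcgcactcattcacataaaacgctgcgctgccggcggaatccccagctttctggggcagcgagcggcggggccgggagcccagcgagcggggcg

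In the next set, capitals mark CG dinucleotides. Dusp10 changed most on the deposited scale and had a peak over its start, whereas Dusp14 and Dusp2 had none. The mm9 positions are chr1:185858010-185858309 on the plus strand for Dusp10, chr11:83881810-83882109 on the minus strand for Dusp14 and chr2:127161645-127161944 on the plus strand for Dusp2.
Dusp10: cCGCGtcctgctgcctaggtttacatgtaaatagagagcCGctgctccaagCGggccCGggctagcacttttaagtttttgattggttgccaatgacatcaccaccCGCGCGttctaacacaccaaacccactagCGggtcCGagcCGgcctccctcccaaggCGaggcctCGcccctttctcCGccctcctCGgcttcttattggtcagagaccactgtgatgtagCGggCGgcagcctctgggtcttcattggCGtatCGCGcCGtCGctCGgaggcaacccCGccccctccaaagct
Dusp14: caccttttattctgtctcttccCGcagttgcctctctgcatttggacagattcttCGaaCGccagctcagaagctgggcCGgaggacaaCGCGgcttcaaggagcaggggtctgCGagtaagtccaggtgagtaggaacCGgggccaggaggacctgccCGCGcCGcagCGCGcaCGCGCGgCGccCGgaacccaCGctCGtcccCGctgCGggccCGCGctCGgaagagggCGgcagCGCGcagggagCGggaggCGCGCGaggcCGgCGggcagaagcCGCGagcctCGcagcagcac
Dusp2: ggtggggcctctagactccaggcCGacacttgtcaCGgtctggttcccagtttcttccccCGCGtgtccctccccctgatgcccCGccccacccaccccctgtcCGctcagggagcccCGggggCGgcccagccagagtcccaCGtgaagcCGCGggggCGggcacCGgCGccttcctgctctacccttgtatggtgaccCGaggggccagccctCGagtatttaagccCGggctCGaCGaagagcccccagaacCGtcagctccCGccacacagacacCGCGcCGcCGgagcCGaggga

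The CRE stood at -143 in Dusp1 and at -107 and -63 in Dusp8, counted from the start, and was found in 1.79% of the 32851 promoters of the table. The CArG box stood at -82 and -72 in Dusp5, side by side, and was found in 1.63% of all promoters. TGACG, the core of the CRE, which the full element contains, was in 5 of the 9 member promoters and in 20.8% of all. The Sp1 GC box (GGGCGG) was in 8 of 9, all but Dusp6, and in 35.7% of all. The NF-κB consensus, the AP-1 site (TGANTCA) and TATAAA were in 0 of 9, and in 8.46%, 7.81% and 13.6% of all promoters. Both strands were searched, and these are matches of letters within 300 bases, not sites shown to be bound. The 9 promoters were between 57.3% (Dusp6) and 78.7% (Dusp7) GC, against a median of 52.7% over the table. Their CG dinucleotides numbered from 19 (Dusp6) to 41 (Dusp7), against a median of 7. The motif shares above are of all promoters and were not matched for this composition.

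In the untreated cells Dusp7, Dusp1 and Dusp5 were the most abundant members per length. Dusp7, an ERK phosphatase, was at 117 units (95% interval 106 to 129), Dusp1, also known as MKP-1, at 109 units (95.2 to 124) and Dusp5, a nuclear ERK phosphatase, at 99.5 units (82.6 to 119). The intervals of these 3 neighbours overlapped. Dusp14 at 55.7 units, Dusp8 at 53.3 units and Dusp6 at 44.6 units came next, again with overlapping intervals. Dusp16 at 27.4 units, Dusp4 at 23.8 units and Dusp10 at 22.5 units were lowest and also overlapped. Their range among all coding genes ran from the 50.6th percentile (Dusp10) to the 74.0th (Dusp7). Only Dusp1 and Dusp7 passed a mean of 100 units, and Dusp5 with 98.3 units lay just below it. All 9 passed a mean of 10 units, which 11641 coding genes did.

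Dusp2, an inducible nuclear member best known from lymphocytes, was at 0 in all 8 columns. Taking 3 reads over its annotated length, 0 reads allow a level of up to 1.76 units untreated, and 1.69, 2.01 and 1.50 units in the order of the treated libraries. No ratio was formed for it.

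**Figure D1:**
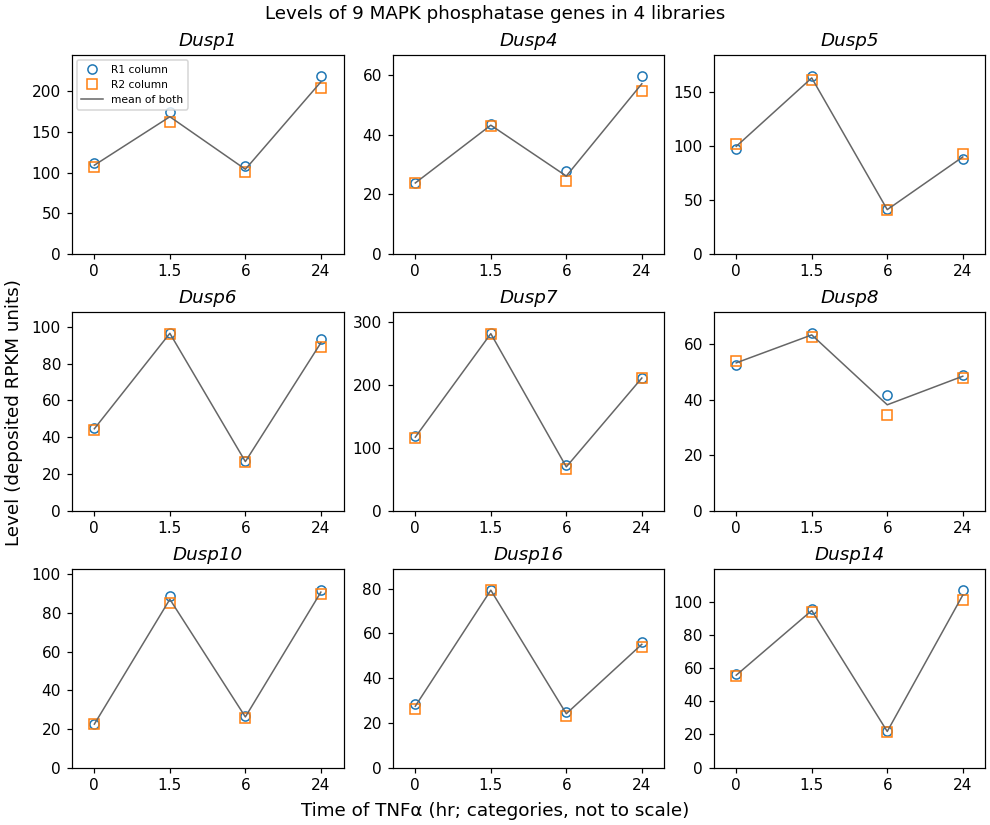
Level of the 9 expressed members in deposited RPKM units (vertical axis, from 0, scaled per gene) in the untreated library (0) and after 1.5, 6 and 24 hr of TNFα, with circles for the R1 column, squares for the R2 column and a line through their mean. At 1.5 hr all 9 lay above untreated, at 6 hr 7 lay below, and Dusp1 and Dusp7 reached 212 and 211 units at 24 hr.

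All 9 expressed members were above their untreated level at 1.5 hr, 7 were below it at 6 hr and 7 were above it at 24 hr. Among the 6050 coding genes 65.2% were above untreated at 1.5 hr, 12.5% at 6 hr and 54.4% at 24 hr. On the deposited scale the members' median log2 ratios were 0.86, -0.48 and 0.96 in order of time. After the median coding gene was subtracted they were 0.42, 0.26 and 0.85, and 8, 6 and 7 of the 9 were above it. Dusp8 was the member below it at 1.5 hr.

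The summed level of the family was 553 units untreated, 1077 at 1.5 hr, 378 at 6 hr and 959 at 24 hr. Relative to the median coding gene the log2 ratios of this sum to untreated were 0.52, 0.19 and 0.69, above it at each time. Dusp7 was the largest contributor untreated (21.2%) and at 1.5 hr (26.1%), Dusp1 was the largest at 6 hr (27.6%), and at 24 hr Dusp1 (22.1%) and Dusp7 (22.0%) stood level. The share of Dusp10 went from 4.06% untreated to 8.08% at 1.5 hr and 9.47% at 24 hr. The share of Dusp5 went from 18.0% untreated to 9.36% at 24 hr. By class, the inducible nuclear genes made up 42.0% of the sum untreated and 34.8% at 1.5 hr. The ERK-selective pair made up 29.2% and 35.1%, and the JNK and p38 selective genes 18.7% and 21.3%.

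**Figure D2:**
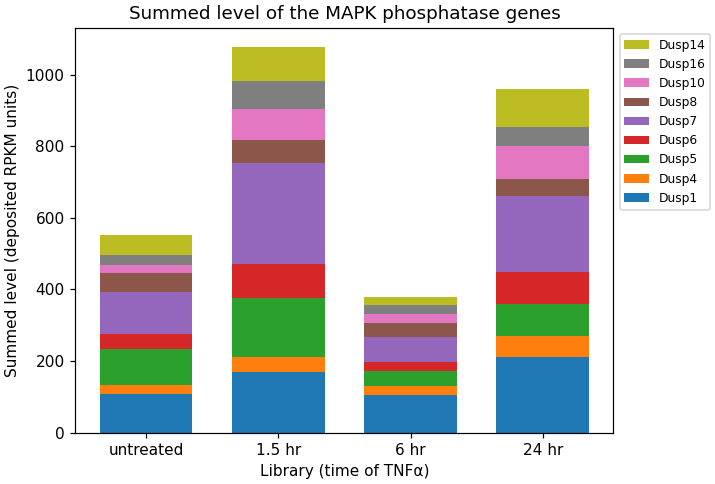
Summed level of the family in deposited RPKM units (vertical axis, from 0) for each of the 4 libraries (horizontal axis), with each coloured section the level of 1 gene. The bars reach 553, 1077, 378 and 959 units, and the section of Dusp10 is 22.5 units untreated and 90.8 units at 24 hr.

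At 1.5 hr, 4 of the 9 members were at least 2-fold higher than untreated on the deposited scale, Dusp10, Dusp16, Dusp7 and Dusp6, in both columns. Of the coding genes, 29.8% were 2-fold higher with a mean of at least 100 units and 31.3% with a mean of at least 10 units. None of the 9 was 2-fold lower, against 7.97% of coding genes. Dusp10 and Dusp16, 2 of 9, were 2-fold higher relative to the median coding gene, against 15.8% of coding genes with a mean of at least 100 units and 16.5% with at least 10 units. None was 2-fold lower on that scale, against 17.4%. Against coding genes of the same GC content 1 of 9 was 2-fold higher, Dusp7, where 10.8% of 5931 coding genes were.

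At 6 hr, 2 of 9 members were at least 2-fold lower on the deposited scale, Dusp5 and Dusp14, in both columns, against 31.5% of coding genes with a mean of at least 100 units and 32.6% with at least 10 units. None was 2-fold higher, against 1.83%. None was 2-fold higher or lower relative to the median coding gene, against 7.21% and 3.26% of coding genes. Dusp10 with 0.96 came nearest to the 2-fold line. Dusp4 passed it with 1.11 against genes of the same GC content, 1 of 9, where 4.96% of coding genes did.

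At 24 hr, 4 of 9 members were at least 2-fold higher on the deposited scale, Dusp10, Dusp4, Dusp6 and Dusp16, and 3 of these in both columns. Dusp16 was at 0.98 in the R1 column and at 1.04 in the R2 column. The share of coding genes was 16.8% with a mean of at least 100 units and 17.2% with at least 10 units. None was 2-fold lower, against 12.8%. Dusp10 and Dusp4, 2 of 9, were 2-fold higher relative to the median coding gene, against 14.4% of coding genes with a mean of at least 100 units and 14.3% with at least 10 units, and none was 2-fold lower, against 15.2%. Dusp4, Dusp10, Dusp7 and Dusp1, 4 of 9, were 2-fold higher against genes of the same GC content, where 10.5% of coding genes were. With 9 genes chosen by family, none of these shares was tested against the background.

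**Figure D3:**
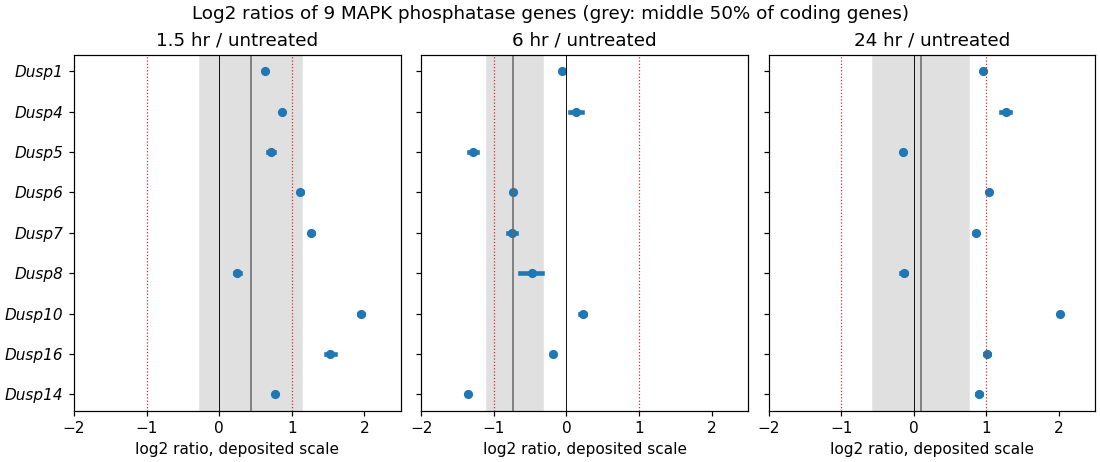
Log2 ratio to the untreated library on the deposited scale (horizontal axis) for the 9 expressed members at 1.5, 6 and 24 hr, with a point for the mean of the columns and a bar between R1 and R2. The grey band holds the middle 50% of the 6050 coding genes, the grey line is their median and the dotted lines mark 2-fold. Dusp10 stands at 1.95, 0.22 and 2.01, to the right of the band at each time.

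The JNK and p38 selective phosphatases held Dusp10. Its log2 ratio was the largest of the expressed members on the deposited scale and relative to the median coding gene. Against genes of the same GC content Dusp4 at 24 hr and Dusp7 at 1.5 hr were higher. Dusp9, itself a MAPK phosphatase but outside the set taken here, was listed with the other dual-specificity phosphatases. It had larger log2 ratios at lower levels. They were 2.76, 0.96 and 2.33 on the deposited scale, from 5.41 units untreated to 36.7 units at 1.5 hr. Dusp10, also known as MKP-5, was at 22.5 units untreated, 87.1 at 1.5 hr, 26.2 at 6 hr and 90.8 at 24 hr. It was thus high in the same libraries in which the median coding gene was higher, and its 1.5 and 24 hr levels were alike within counting error. The fold over untreated came to 3.88 after 1.5 hr (95% interval 2.94 to 5.19), 1.17 at 6 hr (0.820 to 1.68) and 4.04 at 24 hr (3.08 to 5.39). Its log2 ratios relative to the median coding gene were 1.51, 0.96 and 1.91. Against genes of the same GC content, 48.4% in Dusp10, they were 0.99, 0.78 and 1.46.

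Dusp16, known as MKP-7, was at 27.4 units untreated, 79.3 at 1.5 hr, 24.1 at 6 hr and 55.1 at 24 hr. On the deposited scale it peaked at 1.5 hr. The intervals of its 1.5 hr level (72.1 to 87.1 units) and its 24 hr level (49.5 to 61.2 units) did not overlap, but they leave out the shift between libraries. Relative to the median coding gene its log2 ratios at these times were closer, 1.09 and 0.90. The fold was 2.89 at 1.5 hr (2.40 to 3.52) and 2.01 at 24 hr (1.66 to 2.46). Its other transcript in the table gave log2 ratios of 1.41, -0.34 and 0.87 on the deposited scale, against 1.53, -0.19 and 1.01. Against genes of the same GC content, 47.8% in Dusp16, its log2 ratios were 0.56 at 1.5 hr and 0.46 at 24 hr, below 2-fold at both times.

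Dusp8 was at 53.3 units untreated, 63.3 at 1.5 hr, 38.2 at 6 hr and 48.4 at 24 hr. On the deposited scale its interval of the fold included no change at 1.5 hr (0.939 to 1.49) and at 24 hr (0.712 to 1.15). At 6 hr (0.536 to 0.936) it did not, but it included the fold of the median coding gene, 0.599. If its reads are undercounted, which its step length leaves possible, these intervals are too wide. Dusp8 had the highest GC content of the expressed members, 58.8%. The log2 ratio at 1.5 hr was -0.19 relative to the median coding gene and 0.57 against genes of the same GC content. At 6 hr these were 0.26 and 0.48. Its promoter is the one with the CRE at -107 and -63.

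The cytoplasmic ERK phosphatases were higher at 1.5 and 24 hr and lower at 6 hr on the deposited scale. Dusp6, known as MKP-3, was at 44.6 units untreated, 96.5 at 1.5 hr, 26.7 at 6 hr and 91.3 at 24 hr. Dusp7 was at 117 units untreated, 282 at 1.5 hr, 69.6 at 6 hr and 211 at 24 hr. Their log2 ratios at 6 hr, -0.74 and -0.75 on the deposited scale, were close to that of the median coding gene.

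The fold of Dusp7 at 1.5 hr was 2.41 (2.14 to 2.71) and that of Dusp6 was 2.16 (1.76 to 2.68), so the intervals overlapped. The log2 ratios relative to the median coding gene were then 0.83 for Dusp7 and 0.67 for Dusp6. The GC content of the transcripts was unlike, 57.6% in Dusp7 and 49.0% in Dusp6. Against genes of the same GC content the log2 ratio at 1.5 hr was 1.53 for Dusp7, the highest of the family, and 0.18 for Dusp6. At 24 hr it was 1.34 for Dusp7 and 0.44 for Dusp6.

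Among the inducible nuclear phosphatases, Dusp1 and Dusp4 were highest at 24 hr and Dusp5 at 1.5 hr. Dusp1, which acts on p38, JNK and ERK, was at 109 units untreated, 169 at 1.5 hr, 104 at 6 hr and 212 at 24 hr. Its fold was 1.55 at 1.5 hr (1.31 to 1.84), 0.954 at 6 hr (0.782 to 1.17) and 1.94 at 24 hr (1.65 to 2.28). The 24 hr level was above the 1.5 hr level, and their intervals (194 to 231 and 152 to 187 units) did not overlap. The log2 ratios of Dusp1 relative to the median coding gene were 0.19, 0.67 and 0.85, and against genes of the same GC content 0.60, 0.85 and 1.26.

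Dusp4, known as MKP-2, was at 23.8 units untreated, 43.1 at 1.5 hr, 26.1 at 6 hr and 57.0 at 24 hr. It was highest at 24 hr, with a fold of 2.40 (1.77 to 3.24), and relative to the median coding gene its log2 ratios were 0.42, 0.87 and 1.16. Genes of the same GC content gave 0.90, 1.11 and 1.56, the last the highest of the family at 24 hr on that scale. The 1.5 hr interval (35.6 to 51.8 units) overlapped that of 24 hr (48.8 to 66.3 units).

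Dusp5 went another way. It was at 99.5 units untreated, 163 at 1.5 hr, 40.9 at 6 hr and 89.7 at 24 hr. Its 6 hr level lay below the interval of the untreated level (82.6 to 119 units) and its 24 hr level within it. The fold was 1.64 at 1.5 hr (1.31 to 2.07), 0.411 at 6 hr (0.286 to 0.589) and 0.902 at 24 hr (0.701 to 1.17). Relative to the median coding gene the log2 ratios were 0.27, -0.54 and -0.25, and against genes of the same GC content 0.87, -0.40 and 0.30. Its promoter is the one with the paired CArG box.

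Dusp14, the small member, was at 55.7 units untreated, 94.7 at 1.5 hr, 21.8 at 6 hr and 104 at 24 hr. Its swing between 6 and 24 hr, 4.78-fold on the deposited scale, was the widest of the 9 members. The median coding gene itself stood at 0.599 and 1.07 times untreated at these times. Relative to it the difference of 6 hr against 24 hr was -1.41 on the log2 scale. The fold of Dusp14 at 6 hr was 0.391 (0.246 to 0.599) and rested on 29.0 reads. Its log2 ratios relative to the median coding gene were 0.32, -0.62 and 0.80, and against genes of the same GC content 0.18, -0.57 and 0.74. Dusp14 and Dusp5 were the only members of the 9 below the median coding gene at 6 hr by more than 0.1 on the log2 scale.

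Some members were highest at 24 hr and others at 1.5 hr. On the deposited scale 5 of 9 members were highest at 1.5 hr, where 59.4% of the 6050 coding genes were, and 4 of 9 were highest at 24 hr (Dusp1, Dusp4, Dusp10 and Dusp14), where 6.07% of coding genes were. Relative to the median coding gene 5 of 9 were highest at 24 hr, against 20.7% of coding genes, with Dusp6 as the fifth. Of the 4 on the deposited scale, the intervals of the 1.5 and 24 hr levels were apart for Dusp1 alone. The 6050 coding genes have a mean of at least 100 units, which of the members only Dusp1 and Dusp7 reached, so the sets compared are unlike in level. These counts were not tested and not formed against genes of the same GC content.

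**Figure D4:**
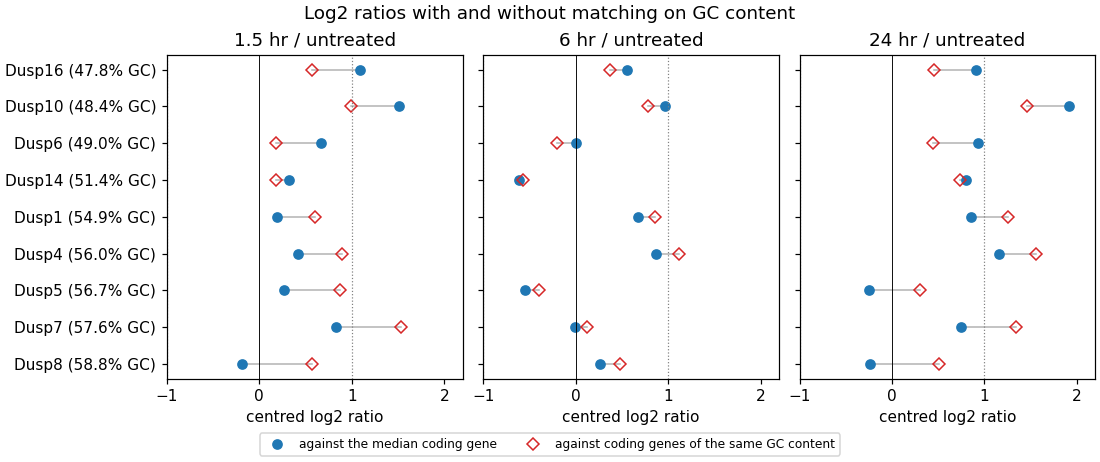
Log2 ratio to the untreated library (horizontal axis) relative to the median coding gene (filled circles) and relative to coding genes of the same GC content (open diamonds) for the 9 expressed members, ordered from the lowest GC content of the transcript at the top to the highest at the bottom. At 1.5 hr Dusp16 moves from 1.09 to 0.56 and Dusp7 from 0.83 to 1.53, while Dusp10 and Dusp4 stay above 1 at 24 hr by both measures.

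H3K4me3 is a histone mark found at the starts of active genes and at many CpG-rich starts. In untreated MEFs 8 of the 10 members had a peak within 1 kb of the start, against 51.5% of 19683 coding genes, 88.8% of the coding genes with a mean of at least 100 units and 81.3% of those with at least 10 units. All 8 of these peaks covered the start. The members without a peak were Dusp2, which was listed at 0, and Dusp14, which was not. The nearest peak was 63868 bp from the start of Dusp2 and 59364 bp from that of Dusp14, and no other annotated start of either gene had one. The authors' list holds no peak with a fold enrichment under 20, so a weaker signal at these genes would not be in it.

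The peaks at 6 of the 8 were broad. In mm9 the peak at Dusp6 spanned chr10:98722835-98731888, 9054 bp with 3906 tags, and covered the whole annotated gene. That at Dusp1 spanned chr17:26639599-26646836, 7238 bp with 2698 tags, and also covered the whole gene. The peak at Dusp4, chr8:35868369-35875820, was 7452 bp long with 2671 tags. Those at Dusp5 (chr19:53601955-53608629) and Dusp7 (chr9:106268956-106275337) were 6675 and 6382 bp long, and that at Dusp10 (chr1:185856291-185861476) was 5186 bp long. These 6 lay between the 86.2nd and the 98.7th percentile of length among peaks at coding starts, whose median was 3380 bp. Dusp8 (chr7:149278615-149282435) with 3821 bp and Dusp16 (chr6:134740037-134743801) with 3765 bp were near the median, at the 63.1st and 61.5th percentile.

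Fold enrichment gave another order. It was highest at Dusp1 with 97.7 and Dusp5 with 75.7, and lowest at Dusp4 with 22.7 and Dusp7 with 25.2, the 3.73rd and 7.49th percentile of peaks at coding starts. Dusp4 and Dusp7 nevertheless had 2671 and 2979 tags, above the 96th percentile. The peak at Dusp10 lay at the start of its longest annotated transcript, where 300 of 300 promoter bases were inside it, and the other annotated start of the gene, 21079 bp upstream, had none within 1 kb. The H3K4me3 data come from untreated cells only, so no change of the mark with TNFα was measured.

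**Figure D5:**
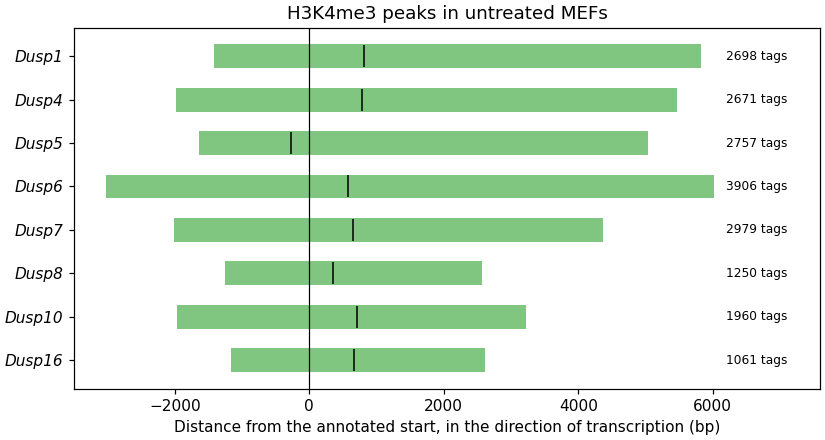
Extent of the H3K4me3 peak around the annotated start of the 8 members that had one, in bp in the direction of transcription (horizontal axis), with a tick at the peak's summit and the tag count at the right. The bar of Dusp6 is the longest, 9054 bp with 3906 tags, and that of Dusp16 the shortest, 3765 bp with 1061 tags.

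The listed MAP kinase genes and the rest of the cascade moved in both directions at 1.5 hr. The list was not limited to kinases that the phosphatases act on. Of 13 MAP kinases measured, 6 were above the 2-fold line and 3 below it on the deposited scale, genes near 0 included. Of the 8 with a mean of at least 100 units 3 were above it and 1 below, where 29.8% and 7.97% of coding genes were. After centring on the median, 3 of the 13 were higher and 4 lower. Of the 8, 2 were then higher and 2 lower, where 15.8% and 17.4% of coding genes were. In the lists below, these shares of coding genes apply at 1.5 hr only to genes with a mean of at least 100 units. Counts there over all measured genes include genes under that mean, which the shares leave out. Mapk6, which encodes ERK3, was at 214 units untreated and at 1092, 260 and 826 units in the order of the treated libraries. Mapk13 and Mapk12, both p38 kinases, were at 259 and 288 units untreated and at 110 and 145 units at 1.5 hr. The other p38 genes did not fall on the deposited scale, Mapk14 going from 206 to 267 units and Mapk11 from 223 to 233 units. Relative to the median coding gene their log2 ratios were -0.06 and -0.38. Mapk3, which encodes ERK1, went from 943 to 2035 units at 1.5 hr.

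Of the 7 MAP kinase kinases, 3 were 2-fold higher at 1.5 hr and none lower on the deposited scale, and 1 was higher and 2 lower relative to the median. Map2k4, which activates JNK, went from 60.2 to 173 units and Map2k1, which activates ERK, from 146 to 366 units. Map2k7, also an activator of JNK, went from 730 to 366 units, just short of 2-fold lower, and Map2k2 from 1780 to 998 units. Of 18 MAP kinase kinase kinases, genes near 0 included, 3 were higher and 1 was lower on the deposited scale. After centring 1 was higher and 6 were lower. Of the 8 with a mean of at least 100 units, 1 was then higher and 3 were lower, where 15.8% and 17.4% of coding genes were. Map3k7, which encodes TAK1, went from 61.6 to 194 units and Map3k3 from 141 to 296 units. Map3k10 went from 615 to 315 units and Map3k14, which encodes NIK, from 185 to 97.6 units.

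Of 11 MAPK-activated kinases, 4 were 2-fold higher at 1.5 hr and none lower, and relative to the median 3 were higher and none lower. Mapkapk2, the p38 effector kinase MK2, was at 202 units untreated, 683 at 1.5 hr, 185 at 6 hr and 505 at 24 hr. Mapkapk5 went from 112 to 235 units at 1.5 hr, Mknk1 from 157 to 180 units and Mknk2 from 593 to 541 units. The Sprouty and Spred genes are another set of feedback inhibitors of the ERK pathway. Of 6 measured, 2 were 2-fold higher at 1.5 hr and none lower on the deposited scale, and relative to the median 1 was higher and 1 lower. Spred3, the one with a mean of at least 100 units, was at 579 units untreated, 338 at 1.5 hr, 578 at 6 hr and 437 at 24 hr.

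Of 14 other dual-specificity phosphatases measured at 1.5 hr, 6 were 2-fold higher and 3 lower on the deposited scale, and 2 were higher and 5 lower relative to the median. Dusp3, a small phosphatase also known as VHR, was at 153 units untreated, 478 at 1.5 hr, 109 at 6 hr and 424 at 24 hr. Dusp11 went from 109 to 206 units at 1.5 hr, and Dusp23 from 168 to 95.2 units. At 6 hr none of the 12 measured was 2-fold higher and 6 were 2-fold lower on the deposited scale. Of the 3 with a mean of at least 100 units none was higher and 1 was lower, where 1.83% and 31.5% of coding genes were. At 24 hr 3 of 13 were higher and 2 lower. Of the same 3, 1 was higher and none lower, where 16.8% and 12.8% of coding genes were. The counts over 12 and 13 genes include genes under that mean, which these shares leave out. With a mean of at least 100 units, 1 of 3 of these phosphatases and 3 of 6 MAP kinase kinases were 2-fold higher at 1.5 hr on the deposited scale. So were 2 of 8 MAP kinase kinase kinases and 2 of 5 MAPK-activated kinases. None of these was 2-fold lower, where 29.8% of coding genes were higher and 7.97% lower. Ratios against genes of the same GC content are not given for these lists.

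The patterns nearest to those of Dusp10 and Dusp4, the 2 members with the largest changes relative to the median coding gene (the pair is another on the deposited scale and against genes of the same GC content), were looked up among 6050 coding genes, by the distance over the 3 log2 ratios relative to the median coding gene. Nearest to Dusp10 were Ppp3ca, a calcineurin subunit, at a distance of 0.081 and Dlgap5 at 0.132. Ppp3ca was at 129, 519, 157 and 518 units and Dlgap5 at 40.6, 167, 45.2 and 173 units. Nearest to Dusp4 were Ankrd1 at 0.189, with 215, 432, 252 and 547 units, and Fbxo22 at 0.239, with 85.4, 158, 87.4 and 177 units. These are likenesses over 3 values from 4 libraries.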

How the data were processed

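Per the labels, RNA of wildtype MEFs was sequenced at 4 times with 1 library each, and H3K4me3 was profiled with 1 library against 1 input. The authors mapped the RNA reads to mm9 with TopHat and deposited RPKM values per RefSeq transcript from an in-house script, with 2 columns per library. Columns were assigned to times through the study's list of libraries. The deposited peak list, made from Bowtie alignments with MACS, holds the tag count of each peak, a score based on its p, the fold enrichment over input and the FDR as a percent.

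Ratios to untreated were formed from the mean of the columns with no pseudocount. Genes with a mean of at least 100 units over the 4 libraries formed the background, and their median log2 ratio was subtracted for the centred values. GC content, starts and gene extents came from GENCODE M1 (mm9) by symbol. The start was that of the longest spliced transcript, since starts of the RefSeq transcripts in mm9 were not used here. GC content was known for 98.0% of the background genes, in 20 bins. Read equivalents took 41 steps of a value as 1 read, and R1 and R2 were averaged, not added.

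Named genes were all members, from each list the 2 highest and the 2 lowest centred ratios at 1.5 hr among genes with a mean of at least 100 units (all where 4 or fewer), and the 2 nearest patterns of 2 members. Mapk3, Mapk11, Mapk14 and Dusp9 were added after their values were seen. A gene that the rule names in the list of MAP kinases is not reported here. The members and lists were chosen with earlier results of these data known. The alternatives were pseudocounts, each column alone, other scalings, GC bins, thresholds of 1.5-fold and 3-fold, the choice of row, filters, and peak limits. The steps were tested on simulated data. Python 3.11.15, numpy 2.4.6, pandas 2.3.3 and matplotlib 3.10.9 were used.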

Additional observations from a re-analysis of the deposited data

Results flagged for a closer look

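Dusp5 and Dusp14 moved in opposite directions at different times, with the same sign in both columns, on the deposited scale and relative to the median coding gene. The differences were not tested, since there was 1 library per time. For Dusp5 the log2 ratio relative to the median coding gene was 0.81 higher at 1.5 hr than at 6 hr and 0.52 higher at 1.5 hr than at 24 hr. Against genes of the same GC content its values at 1.5 and 24 hr were 0.87 and 0.30, so the opposite sign was lost there, while at 6 hr it was -0.40. For Dusp14 the ratio at 1.5 hr was 0.94 higher than at 6 hr, and the difference of 6 hr against 24 hr was -1.41. Against genes of the same GC content the values of Dusp14 were 0.18, -0.57 and 0.74.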

How the results depend on the processing

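With 1 library per time there was no replicate error, and shifts of log2 ratios were judged against how far a library's columns lay from their mean, which is a technical difference. No paired or leave-one-out analysis was possible because no time had a second library. Leaving all else as reported, the number of members at least 2-fold higher at 1.5 hr on the deposited scale, 4, was 0 with a pseudocount of 100, 2 when scaled to the median of ratios or to a trimmed mean, 8 at 1.5-fold and 1 at 3-fold. Relative to the median coding gene, 2, it was 1 with a pseudocount of 10, 0 with one of 100, 1 within GC bins, 1 with the other Dusp16 transcript, 4 at 1.5-fold and 0 at 3-fold. The members at least 2-fold lower at 6 hr, 2, were 0 with a pseudocount of 100, under each of the 3 scalings (to the sum, the median of ratios and the trimmed mean) and at 3-fold, and 4 at 1.5-fold. Those at least 2-fold higher at 6 hr, 0, were 1 when scaled to the sum or the median of ratios. Relative to the median coding gene they were 1 within GC bins and with the median taken over genes with a mean of at least 500 units, and 3 at 1.5-fold, while 1 was lower at 1.5-fold. The members at least 2-fold higher at 24 hr, 4, were 1 with a pseudocount of 10, 0 with one of 100, 2 when scaled to the median of ratios or to a trimmed mean (and 5 when scaled to the sum), 7 at 1.5-fold and 1 at 3-fold. Relative to the median coding gene, 2, they were 1 with a pseudocount of 10, 0 with one of 100, 4 within GC bins, 7 at 1.5-fold and 1 at 3-fold. The members with an H3K4me3 peak, 8, were 5 at a fold enrichment of at least 40. Among these counts 156 other values stayed within 1.5 times, and among log2 ratios and background percentages 576 stayed within this difference or within 1.5 times and 339 did not. Many of the unmoved values could not have moved, so their number is no measure of stability. The filters do not enter the members' ratios on the deposited scale, and the 3 scalings cancel on centring. The choice of row cannot change the deposited ratio of a gene with 1 row. Each column alone set the difference allowed for a log2 ratio, and a count of 0 that stayed 0 was taken as unmoved. No 2-fold log2 ratio changed sign. The pseudocounts pull ratios of low genes towards 0 by construction, and the cause of the other shifts was not tested. Depth limits the values at 6 hr most, where Dusp14 rested on 29.0 reads.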
